A study of Mus musculus with 8 samples.

Results

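The genes of the cytosolic ribosomal proteins were examined in bone marrow–derived mast cells (BMMCs) after transfection with an RNP against *Zc3h12a* or with a scrambled RNP. Members were chosen by symbol, as Rps (small subunit) or Rpl (large subunit) followed by a number with at most 1 letter and further digits, together with *Rpsa* and the P stalk genes (Rplp), without pseudogenes and S6 kinases, and with a mean CPM (counts scaled to library size) of at least 10 over the 8 samples. Of 24059 symbols in the files, 88 had such a name and 80 reached this level: 32 of the small subunit, 45 of the large subunit and 3 of the P stalk. The first symbol below the cutoff was *Rps4l*, at 8.88 CPM, and the members just above it were *Rpl24* at 11.04 and *Rps10* at 16.3 (means over the samples, scaled by library totals). The other 7 symbols below it were at 1.68 CPM or less. *Rpl36al*, a paralog of *Rpl36a* at 20.1 CPM, has 2 letters after its number and is not among the members.

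BMMCs are mast cells that differentiate in culture from marrow precursors, here of C57BL/6 mice of 6 to 8 wk, kept with IL-3 for at least 4 wk. The cells of 4 mice received Cas9 RNPs with guides to *Zc3h12a*, the gene of Regnase-1, or with a scrambled guide that targets nothing in the mouse genome, and RNA was extracted from resting cells 1 wk later, giving 4 samples per RNP. The labels give the genotype as Zc3h12a WT for Scrambled and Zc3h12a KO for *Zc3h12a* RNP. The RNP cells were a transfected population and not a selected clone, and the 2 samples that share a replicate number were compared as a pair.

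The cytosolic ribosome is built from ribosomal RNA and a copy of nearly every ribosomal protein, so these proteins are needed in matched amounts. Their mRNAs need not be at equal levels. Most of them are 5′ terminal oligopyrimidine (TOP) mRNAs, which begin with a C followed by a run of C and T and whose translation is set by the kinase mTORC1, in part through the binding protein LARP1. Regnase-1 is an RNase that cuts stem-loops in the 3′UTR of mRNAs in contact with ribosomes, and its best known substrates encode cytokines rather than ribosomal proteins.

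The start regions of 8 of the members named below are shown to let a reader see the pyrimidine runs. Each window has 30 bases of GRCm39, with the longest run of C and T that begins with C within 50 bases of the annotated start in capitals, on the strand of the gene.
Rpl13a: cgacaagaCCTCCTCCTTTCCCaggcggct
Rpl4: tgacaagtCTTTCCTTTTCCTgtgggagca
Rpl10: gggagcgtCTCTTTTCCTCTggcgcggtga
Rps12: accgccggCCTTTTCCCCTgccgccgccga
Rps27: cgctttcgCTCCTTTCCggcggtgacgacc
Rplp1: cagacgcgCCTCCTCTCggttttggccctg
Rps10: ttttttgtCCTTCCgggacaaggtctcagg
Rpl24: caaacccaCTCCCCgccaatgctgtaggaa
The windows lie at chr7:44778146-44778175 for *Rpl13a*, chr9:64080644-64080673 for *Rpl4*, chrX:73314455-73314484 for *Rpl10*, chr10:23663078-23663107 for *Rps12*, chr3:90120936-90120965 for *Rps27*, chr9:61821895-61821924 for *Rplp1*, chr17:27854526-27854555 for *Rps10* and chr16:55786594-55786623 for *Rpl24*. *Rpl4*, *Rpl10* and *Rpl24* are on the plus strand and the other 5 on the minus strand. The run had 14 bases in *Rpl13a*, 13 in *Rpl4*, 12 in *Rpl10*, 11 in *Rps12*, 9 in *Rps27* and *Rplp1*, and 6 in *Rps10* and *Rpl24*. In other members named below for their fold change, p or level, it was mostly shorter. It had 9 bases in *Rps27l*, 7 in *Rpl7l1* and *Rps9*, 6 in *Rpl23*, 5 in *Rpl19*, *Rplp0* and *Rpl22l1*, and 4 in *Rps29*. A run of 8 or more was found in 45 of the 80 members (56.2%) and in 31.4% of 21757 protein-coding genes, and one of 10 or more in 36.2% and 15.8%. The annotated start itself was a C in 19 members (23.8%) and in 21.1% of protein-coding genes, and a TOP motif at that base was found in 7 members (8.75%) and 3.62%. The runs shown begin at position -28 from the annotated start in *Rps10*, -36 in *Rpl24* and -44 in *Rplp1*, and 7 to 34 bases after it in the other 5. The annotated start need not be the base at which transcription begins in these cells. Among letters searched on both strands from 250 bases before to 50 after the start, CCGGAA, the core bound by ETS factors, was in 46.2% of members and 16.9% of protein-coding genes. GGGCGG, which SP factors bind, was in 52.5% and 42.5%, and TATAAA, the TATA box, in 13.8% and 13.2%.

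Total counts per sample were 19610240 to 33986762 with scrambled RNP and 23712029 to 28564062 with *Zc3h12a* RNP, and every member had at least 198 counts in every sample. Counting error weighs most where counts are low, as in *Rpl24* (198 to 406 counts). It was not compared with the spread of the pair differences of each member. The targeted mRNA itself did not separate the groups: *Zc3h12a* was at 24.9, 38.0, 37.1 and 39.3 CPM in Scrambled replicates 1 to 4 and at 26.8, 41.1, 32.2 and 32.6 in *Zc3h12a* RNP replicates 1 to 4. Its level therefore gives no check of the labels. The 9 mast cell markers summed to 54117 to 63552 CPM with scrambled RNP and 51172 to 57393 with *Zc3h12a* RNP. All 9 had a fitted log2 fold change under 0 (median -0.14), 3 of them at an unadjusted p at or under 0.05 and 0 past the threshold used below, and 4 were lower in 4 of 4 pairs. Their part in the results on ribosomal protein genes was not tested. The 5 macrophage markers summed to at most 10.3 CPM, the 4 erythroid markers in the files to at most 3.80 and those of B cells and neutrophils to at most 0.501, with *Hba-a2* at 0 in all samples. The 3 basophil markers, of which *Cd200r3* is also a mast cell gene, summed to 457 to 544 CPM. The summed level of 749 olfactory receptor genes, which serve smell and not mast cells, varied from 114 to 546 CPM between samples, and its part in the results below was not tested.

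Ribosomal protein genes took 3.18 to 4.47% of all counts. In Scrambled replicates 1 to 4 their share was 4.42, 4.27, 3.65 and 3.37%, and in *Zc3h12a* RNP replicates 1 to 4 it was 3.82, 3.84, 4.47 and 3.18%. The groups overlapped over nearly their whole range. The difference (*Zc3h12a* RNP minus Scrambled) was -0.597, -0.424 and -0.188 percentage points in pairs 1, 2 and 4 and 0.823 points in pair 3, and the mean difference of -0.0965 points was smaller than the SD of the 4 differences (0.636). Both subunits moved alike, as the ratio of small subunit to large subunit counts stayed between 0.758 and 0.777 in all samples. The mitochondrial ribosome, whose proteins come from a separate gene set, took 0.179 to 0.250% of counts.

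**Figure D1:**
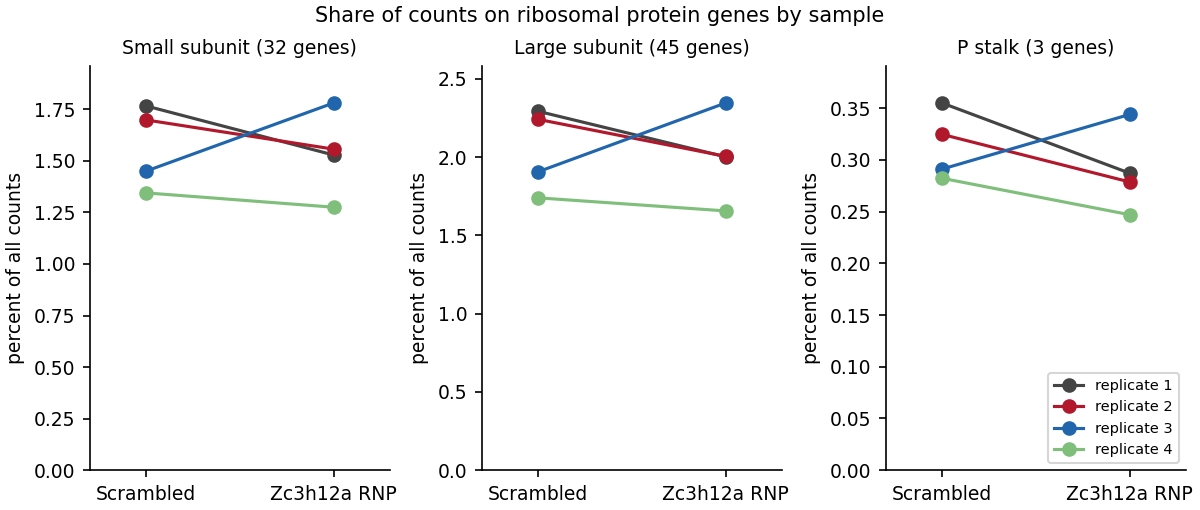
Percent of all counts (y axis) on the small subunit, large subunit and P stalk genes in each sample, with lines joining the Scrambled and *Zc3h12a* RNP samples of a replicate number. In each panel the line of replicate 3 goes up and those of replicates 1, 2 and 4 go down.

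Most members were among the more abundant mRNAs of these cells, and 53 of the 80 were among the 500 genes of highest mean CPM. Their mean levels ran from 11.1 to 1451 CPM, with a median of 446. Per kb of coding sequence, *Rpl41*, the shortest ribosomal protein, was highest at 3838 CPM per kb. *Rplp1*, *Rpl23* and *Rps24* followed at 3360, 2665 and 2337. The counts are of whole genes, so a short coding sequence in a longer transcript raises this value. *Rpl41* has 138 coding bases in a transcript of 560, *Rplp1* 342 in 547 and *Rps24* 435 in 1698. The order by transcript length was not computed. The paralogs *Rpl22l1*, *Rpl7l1* and *Rps27l* were at 64.2, 149.9 and 246 CPM per kb.

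The members were above or below their own means together across samples, and this common movement followed the samples more than the RNP. The median deviation of the 80 genes from their own means (log2 CPM) was 0.21, 0.32, -0.05 and -0.32 in Scrambled replicates 1 to 4 and -0.06, 0.06, 0.19 and -0.40 in *Zc3h12a* RNP replicates 1 to 4. Both samples of replicate 4 were low, with 80 members below their mean in the Scrambled sample and 79 in the *Zc3h12a* RNP sample. A single component held 80.9% of the variance of the members over the samples, against 47.7% for the 1475 other genes with a mean log2 CPM of at least 7. This is a description of 8 libraries, in which members share the library's depth and scaling.

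Within pairs, the median log2 difference of the members (*Zc3h12a* RNP minus Scrambled) was -0.28, -0.26, 0.26 and -0.09 in pairs 1 to 4, while that of all genes tested was 0.03, 0.01, 0.01 and -0.06. Pair 1 had 78 members lower, pair 2 had 78 lower, pair 3 had 69 higher and pair 4 had 55 lower. Genes of high level other than members (mean log2 CPM of at least 7) had medians of -0.03, -0.13, -0.09 and 0.05. Pair 3 was therefore the pair in which the members went the other way, and 43 members were lower in pairs 1, 2 and 4 and higher in pair 3. The share of other genes with this pattern was not computed, so the count does not tell how particular it is to the members. The SD of a member's 4 differences had a median of 0.256, against 0.176 in those other genes of high level.

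**Figure D2:**
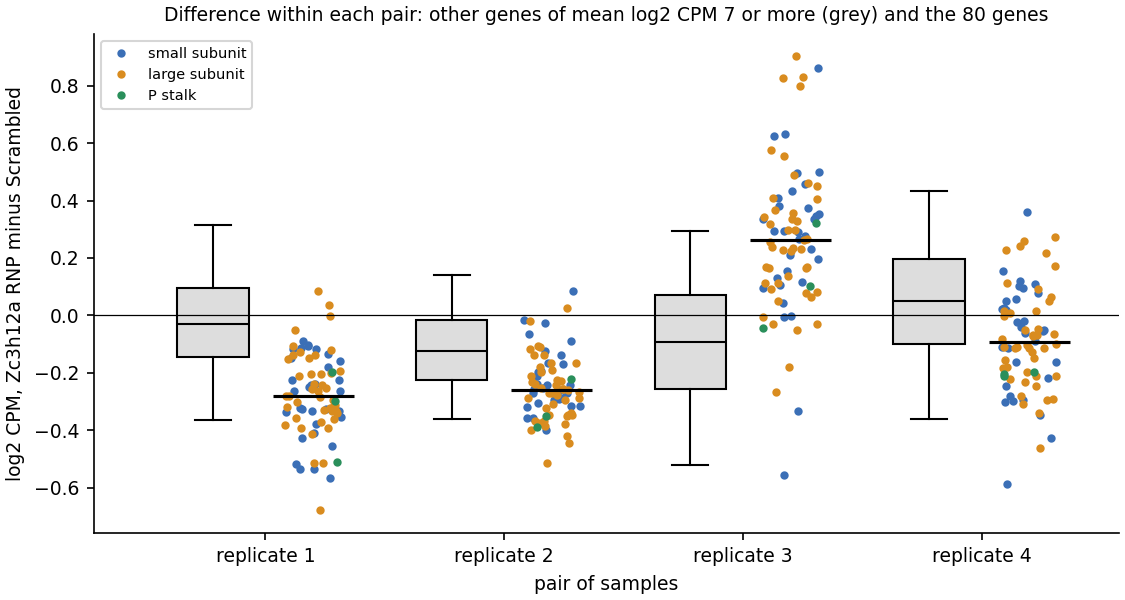
Difference in log2 CPM between the *Zc3h12a* RNP and Scrambled samples of each replicate number (y axis) for the 80 members (points, coloured by subunit, with a bar at their median) and for the 1475 other genes of mean log2 CPM 7 or more (grey boxes from the 25th to the 75th percentile, whiskers from the 5th to the 95th). The members lie mostly below 0 in replicates 1 and 2 and mostly above 0 in replicate 3.

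No member passed the threshold of a log2 fold change beyond 0.5 with an adjusted p at or under 0.05 in the quasi-likelihood test of edgeR with a term for the replicate number, among 14934 genes tested, all 80 members included. The background was 0% of genes in either direction by edgeR. DESeq2 and limma-trend called 0 members as well, where DESeq2 called 0.0536% of all genes higher and 0.335% lower and limma-trend called 0% higher and 0.0067% lower. The lowest adjusted p among the members was 0.401 (edgeR, Benjamini-Hochberg), for *Rps10*. At an unadjusted p at or under 0.05, which does not correct for the number of genes, 10 members (12.5%) were lower and 0 were higher, against 4.05% lower and 2.12% higher among all genes tested. Among the 1475 other genes of high level the shares were 10.4% lower and 1.29% higher, so that the share of members lower was near that of other abundant genes. The 10 members became 21 without replicate 3, 1 without replicate 1, 1 without replicate 2 and 2 without replicate 4, and 0 without the replicate block, where the share of all genes was 3.23%, 0.927%, 1.72%, 2.63% and 0.596%. Of the members, 11 (13.8%) were lower in 4 of 4 pairs, against 8.54% of genes tested, and 0 were higher in 4 of 4, against 4.98%. In the other genes of high level these shares were 17.4% and 2.58%, and the members' share lower in every pair was below that of other abundant genes. The 10 were *Rps10*, *Rps12*, *Rps23* and *Rps24* of the small subunit, *Rpl11*, *Rpl13a*, *Rpl19*, *Rpl23* and *Rpl24* of the large subunit, and *Rplp2*. The 11 were the same without *Rpl23* and with *Rpl5* and *Rpl7a*. In *Rps23*, *Rps24*, *Rpl11*, *Rpl5*, *Rpl7a* and *Rplp2* the difference in pair 3 was -0.04 or nearer to 0, so that their count of 4 pairs rests on a small value there.

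The median log2 fold change of the members was -0.10, beside 0.04 over all genes tested, and 65 members (81.2%) had a value under 0, against 42.2% of genes tested. In the other genes of high level the median was -0.05 and 64.3% were under 0. When scaled by library totals alone, the members' median was -0.03 and that of all genes 0.11, and 47 of 80 members were under 0. Without replicate 1 the members' median was 0.005 and without replicate 2 it was 0.03, whereas without replicate 3 it was -0.26. The 95% interval of the fold change lay within -0.5 to 0.5 in 75 members (93.8%), against 51.4% of genes tested and 90.9% of the other genes of high level, and it reached outside in *Rps10*, *Rpl24*, *Rpl9*, *Rpl10* and *Rpl22l1*. The small subunit genes had a median of -0.09 (25 of 32 lower), the large subunit genes -0.09 (37 of 45 lower) and the P stalk genes -0.19 (3 of 3 lower).

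**Figure D3:**
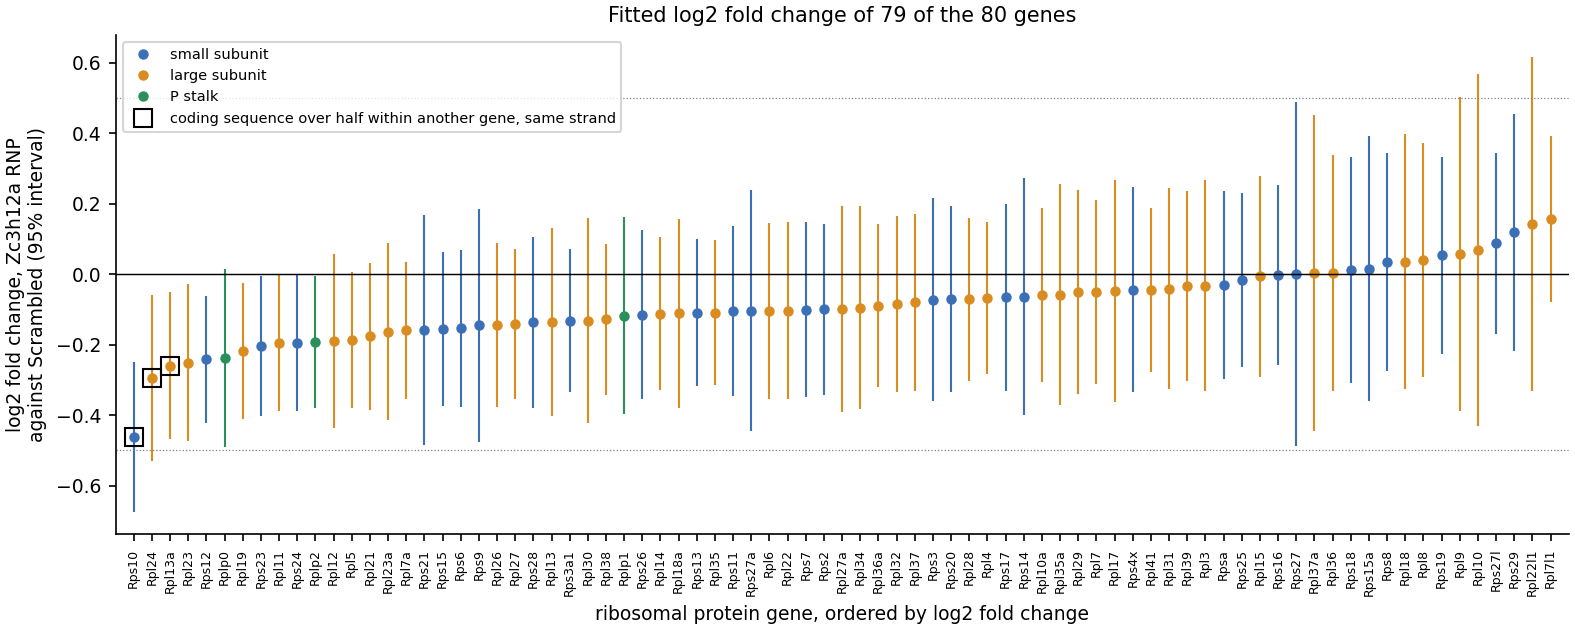
Fitted log2 fold change of 79 of the 80 members (points, y axis) with its 95% interval (lines), ordered along the x axis and coloured by subunit; dotted lines mark -0.5 and 0.5, and black squares mark the 3 members whose coding sequence lies over more than 50% of its length within another annotated gene of the same strand. The values run from -0.46 for *Rps10* to 0.16 for *Rpl7l1*, and the 3 squares are at the lower end.

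The 3 members with the lowest fold changes were *Rps10*, *Rpl24* and *Rpl13a*. *Rps10* encodes a protein of the head of the small subunit that is ubiquitinated when ribosomes collide, and it is mutated in some patients with Diamond-Blackfan anemia. *Rps10* (chromosome 17, 27849390 to 27855643, GRCm39) was at 20.1, 15.3, 28.7 and 12.04 CPM in Scrambled replicates 1 to 4 and at 15.1, 12.5, 19.5 and 7.99 CPM in *Zc3h12a* RNP replicates 1 to 4. The groups overlapped, but each *Zc3h12a* RNP sample was below its pair, with log2 differences of -0.41, -0.29, -0.55 and -0.59. The fitted log2 fold change was -0.46 (standard error 0.091, 95% interval -0.67 to -0.25), with a p of 0.00118 before adjustment and 0.401 after it in edgeR; the adjusted value was 0.242 to 1 over the alternatives.

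*Rpl24* (chromosome 16, 55786638 to 55791798), whose protein bridges the large to the small subunit, was at 11.0002, 13.5, 14.96 and 9.42 CPM in Scrambled replicates 1 to 4 and at 9.57, 11.4, 12.4 and 6.82 CPM in the *Zc3h12a* RNP samples. All 4 pairs were lower, and the fitted log2 fold change was -0.29 (standard error 0.10, edgeR's adjusted p 0.686). *Rpl13a* (chromosome 7, 44774982 to 44778263), a large subunit protein that also takes part in silencing of mRNAs after interferon-γ, was at 69.1, 67.5, 68.6 and 56.1 CPM with scrambled RNP and at 62.8, 47.3, 60.5 and 48.4 CPM with *Zc3h12a* RNP. The fitted value was -0.26 on the log2 scale (standard error 0.090, edgeR's adjusted p 0.686), and it too was lower in 4 of 4 pairs. Both genes overlapped between groups, *Rpl13a* through the low Scrambled replicate 4.

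These 3 genes also stood apart in level and in the annotation. In GENCODE's annotation of GRCm39, 92.1% of the coding sequence of *Rps10* lies within exons of *Gm49804* on the same strand. For *Rpl24* 83.4% and for *Rpl13a* 97.5% lies within exons of other genes on the same strand. The genes that overlap them on either strand are *Gm28037* and *Zbtb11os1* for *Rpl24*, and *Gm45713* and *Mir5121* for *Rpl13a*. Among the other 77 members, *Rpl19* had 13.6% and 76 had 0%. Per kb of coding sequence, *Rpl24*, *Rps10* and *Rpl13a* had mean levels of 23.6, 33.1 and 98.6 CPM, whereas the other 77 members had 64.2 to 3838, with a median of 887. *Rpl22l1*, at 64.2, was the one other member under 100 CPM per kb. By default, featureCounts leaves out a read that overlaps more than 1 gene. The setting used is not given in the sources used here, and the counting used another release of the annotation, so the part of the overlaps in these values was not tested. Without these 3 genes, 7 members had an unadjusted p at or under 0.05, all lower, and the median log2 fold change was -0.09.

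**Figure D4:**
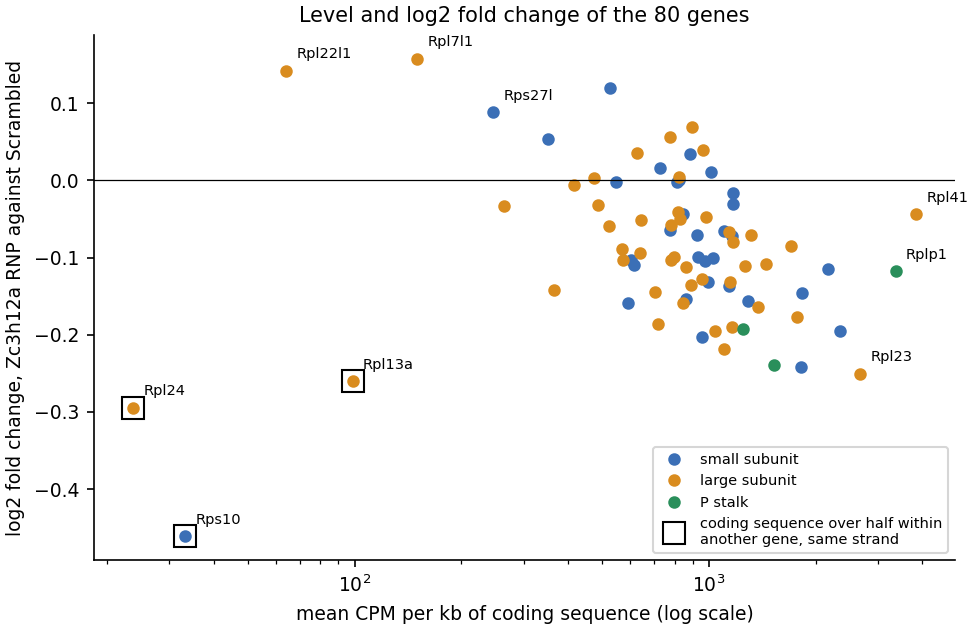
Mean CPM per kb of coding sequence (x axis, log scale) against the log2 fold change (y axis) for each of the 80 members, coloured by subunit. The 3 genes with a black square, *Rps10*, *Rpl24* and *Rpl13a*, lie at or below 98.6 CPM per kb and at the lowest fold changes.

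After these 3, the lowest fold changes were those of *Rpl23* and *Rps12*, which were at a high level. *Rps12* (chromosome 10, 23661081 to 23663173), a protein of the head of the small subunit whose gene holds snoRNAs in its introns, was at 851, 946, 1024 and 680.0 CPM in Scrambled replicates 1 to 4 and at 785, 785, 813 and 573 CPM in *Zc3h12a* RNP replicates 1 to 4. All 4 pairs were lower, with log2 differences of -0.12, -0.27, -0.33 and -0.25, and their SD of 0.091 was the smallest of any member. The fitted log2 fold change was -0.24 (standard error 0.077), and edgeR's p was 0.0152 before and 0.662 after adjustment, the latter 0.336 to 1 over the alternatives. *Rpl23*, a large subunit protein that also binds Mdm2, was at 1308, 1339, 1211 and 996 CPM with scrambled RNP and at 996, 1037, 1253 and 815 CPM with *Zc3h12a* RNP, for a log2 fold change of -0.25 (standard error 0.096). *Rpl23* was lower in pairs 1, 2 and 4 only. *Rpl19*, which lies at the exit of the tunnel for the new peptide, was lower in 4 of 4 pairs, with log2 differences of -0.21, -0.37, -0.05 and -0.25, and edgeR's adjusted p was 0.744.

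Among members ordered by their place in the ribosome, the stalk proteins recruit the translation factors that hydrolyse GTP. *Rplp0*, the base of the stalk and the member with the highest mean CPM (1451), was at 1956, 1741, 1324 and 1297 CPM in Scrambled replicates 1 to 4 and at 1374, 1366, 1422 and 1131 CPM in the *Zc3h12a* RNP samples. Its log2 fold change was -0.24 (standard error 0.11, 95% interval -0.49 to 0.01). *Rplp1* was at 1184, 1427, 1160 and 991 CPM and then at 1033, 1090, 1450 and 860 CPM, for a log2 fold change of -0.12 (standard error 0.12). *Rplp2* was lower in 4 of 4 pairs, with log2 differences of -0.30, -0.22, -0.04 and -0.21 and an edgeR adjusted p of 0.789. In both *Rplp0* and *Rplp1* pair 3 was higher with *Zc3h12a* RNP.

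*Rpl5* and *Rpl11* form a particle with 5S rRNA that binds Mdm2 when ribosome assembly is impaired. *Rpl5* was at 687, 758, 672 and 607 CPM with scrambled RNP and at 625, 629, 658 and 490 CPM with *Zc3h12a* RNP, and *Rpl11* at 666, 672, 594 and 435 CPM and then at 547, 562, 592 and 370 CPM. Both were lower in 4 of 4 pairs, although in pair 3 the log2 differences were only -0.03 and -0.005, and the fitted values were both -0.19, with edgeR's adjusted p at 0.798 for *Rpl11* and higher for *Rpl5*. Over the 8 genes of the exit tunnel and its rim the median was -0.09 (log2 fold change), and 0 passed the test. They include *Rpl4*, which lines the tunnel and was at 1627, 1819, 1426 and 1003 CPM with scrambled RNP and at 1495, 1467, 1543 and 1038 CPM with *Zc3h12a* RNP, for a log2 fold change of -0.07 (standard error 0.092). The 7 genes of the mRNA channel and head of the small subunit had a median of -0.16, and 0 passed the test. Of 10 genes mutated in Diamond-Blackfan anemia, 9 were under 0 (median -0.13) and 0 passed, where 81.2% of all members were under 0. *Rps19*, the one most often mutated, was at 0.05 (standard error 0.12).

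At the other end, a few members differed most between pairs. The SD of the 4 pair differences was largest for *Rpl10* (0.631), *Rps27* (0.606), *Rpl22l1* (0.589), *Rpl37a* (0.557) and *Rpl9* (0.553). *Rpl10* (chromosome X, 73314418 to 73316741), which is added late in the assembly of the large subunit, was at 804, 673, 346 and 475 CPM in Scrambled replicates 1 to 4 and at 502, 625, 614 and 562 CPM in *Zc3h12a* RNP replicates 1 to 4. Its differences were -0.68, -0.11, 0.83 and 0.24, and the fitted value of 0.07 was smaller than its standard error of 0.21. *Rps27*, a small subunit protein with a zinc finger, was at 257, 250, 144 and 177 CPM with scrambled RNP and at 180, 245, 261 and 144 CPM with *Zc3h12a* RNP. In both genes Scrambled replicate 3 was the lowest sample of its group and Scrambled replicate 1 the highest. *Rps9*, a small subunit protein that acts in decoding, was at 1382, 1302, 852 and 975 CPM and then at 954, 1054, 1105 and 900.2 CPM, with Scrambled replicate 3 again the lowest of its group.

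**Figure D5:**
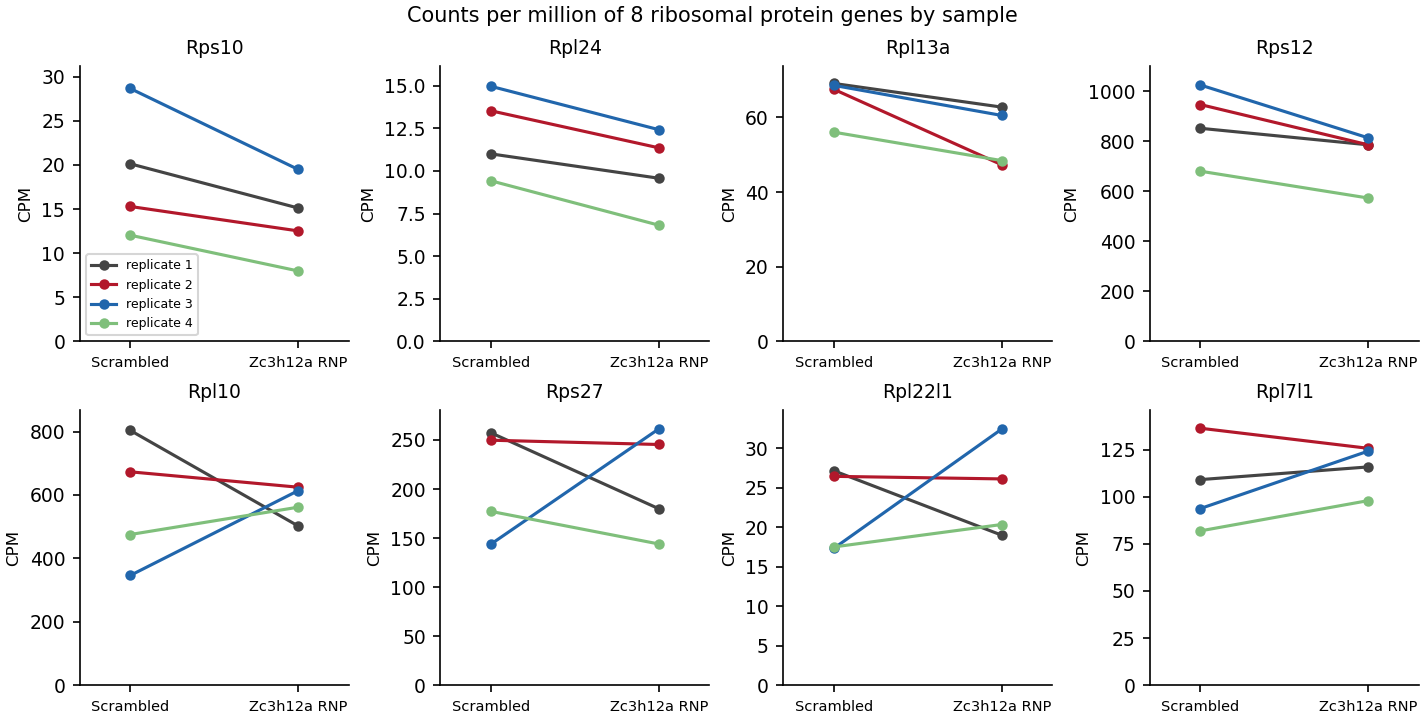
CPM (y axis) of 8 members in each sample, with lines joining the samples of a replicate number. *Rps10*, *Rpl24*, *Rpl13a* and *Rps12* (upper row) go down in 4 of 4 replicates, whereas in *Rpl10*, *Rps27* and *Rpl22l1* replicate 3 goes up and replicate 1 goes down, and in *Rpl7l1* replicate 2 alone goes down.

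The members with fold changes furthest above 0 were *Rpl7l1*, *Rpl22l1*, *Rps29*, *Rps27l* and *Rpl10*, and 3 of these 5 are paralogs of a core protein. *Rpl7l1*, which acts in the assembly of the large subunit, was at 109, 136, 93.8 and 81.9 CPM in Scrambled replicates 1 to 4 and at 116, 126, 124 and 97.97 CPM in *Zc3h12a* RNP replicates 1 to 4, for a log2 fold change of 0.16 (standard error 0.10, 95% interval -0.08 to 0.39). *Rpl22l1*, the paralog of *Rpl22*, was at 27.2, 26.5, 17.3 and 17.5 CPM and then at 19.0, 26.1, 32.4 and 20.4 CPM, for a log2 fold change of 0.14 (standard error 0.20). *Rps27l*, the paralog of *Rps27* that p53 induces, was at 62.8, 82.5, 61.3 and 36.4 CPM and then at 57.2, 75.01, 74.3 and 46.7 CPM, for a log2 fold change of 0.09 (standard error 0.11). *Rps29*, a small subunit protein with a zinc finger, was at 157, 174, 135 and 103 CPM and then at 125, 185, 208 and 111 CPM, for a log2 fold change of 0.12 (standard error 0.14). The adjusted p of these genes was 0.96 or more (edgeR), and without replicate 3 the fold changes of *Rpl22l1*, *Rps29*, *Rps27l* and *Rpl10* were under 0.

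The ratios of 4 paralogs to their partners were compared per sample, as values with no test. *Rpl7l1* was at 0.138, 0.168, 0.160 and 0.149 times the CPM of *Rpl7* in Scrambled replicates 1 to 4 and at 0.184, 0.176, 0.172 and 0.176 times in *Zc3h12a* RNP replicates 1 to 4. All the *Zc3h12a* RNP samples were above all the Scrambled samples, and the 4 pairs were higher by 0.42, 0.06, 0.11 and 0.24 on the log2 scale. *Rpl7l1* was also the member with the highest fold change, and the share of all gene ratios that separate in this way was not computed. The other ratios overlapped between groups. The ratio of *Rpl22l1* to *Rpl22* was 0.0831 to 0.110 with scrambled RNP and 0.0907 to 0.130 with *Zc3h12a* RNP and was higher in 3 of 4 pairs. The ratio of *Rps27l* to *Rps27* was 0.205 to 0.427 and then 0.284 to 0.324, and was higher in 2 pairs, as was that of *Rpl36al* to *Rpl36a*, which was 0.0864 to 0.134 and then 0.0898 to 0.125.

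Other features of the members were not used by the rule. The members lie on 19 chromosomes. Within the bounds of 30 of them, on the same strand, lie 59 annotated small RNAs of the snoRNA or scaRNA class, here called snoRNAs. Many snoRNAs guide the modification of ribosomal RNA. The share of all genes that hold such an RNA was not computed. The median log2 fold change was -0.10 in members with a snoRNA (28 of 30 lower) and -0.07 in those without (37 of 50 lower). Members with a pyrimidine run of 8 or more near the start had a median of -0.08 and the 35 others -0.11. Many ribosomal protein genes have processed copies elsewhere in the genome, so that reads can match more than 1 place: in 27 members every 50-base stretch of the coding sequence occurred elsewhere in GRCm39, and the median over members was 88.9%. *Rps3* (8.09%) and *Rpl8* (8.86%) were among the few members with under 10%, and their log2 fold changes were -0.07 and 0.04. How reads with several matches were counted is not given in the sources used here. The 183 symbols of the family with the pseudogene suffix -ps took 0.117 to 0.156 counts per 100 counts on members. Copies without that suffix were not included, so this is not the share of reads on all copies.

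Genes that work with the ribosomal proteins were read in the same fit, and 0 in any of these lists passed the test. Among ribosomal components with other names, *Fau*, which makes a ribosomal protein fused to a ubiquitin-like part, was at -0.21 and the scaffold *Rack1* at -0.01 (log2 fold change). The 18 other TOP mRNAs had a median of -0.11 (15 lower) and pair medians of -0.14, -0.24, 0.08 and -0.13. For comparison, 81.2% of the members and 64.3% of the other genes of high level were lower. *Pabpc1*, the poly(A)-binding protein, was at -0.31 (standard error 0.098, adjusted p of 0.66 by edgeR). *Eef1a1*, the most abundant of the other TOP mRNAs, was at -0.10 (standard error 0.10). The 12 regulators of TOP mRNAs and mTORC1 had a median of 0.05, and the 6 chaperones and assembly factors of ribosomal proteins one of 0.01, with *Aamp* at -0.25 (standard error 0.084). The 77 mitochondrial ribosomal protein genes tested had a median of 0.02 (31 lower, pair medians of -0.03, -0.20, 0.23 and 0.11). Like the cytosolic members, they were mostly higher in pair 3 (61 of 77). They were also mostly higher in pair 4 (62 of 77), where 55 cytosolic members were lower. In pairs 1 and 2, 46 and 71 of them were lower, where 78 cytosolic members were lower in each. Of the 183 symbols of the family with the pseudogene suffix -ps, 36 passed the filter on low counts, with a median of -0.07.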

How the data were processed

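The authors prepared poly(A) libraries from 8 samples, aligned the reads to GRCm39 (HISAT2 2.2.1), assigned them to genes (featureCounts 2.0.1), and deposited the raw counts. No per-sample column was left unused (0). Fold changes were computed with edgeR 4.0.16 in R 4.3.3 (quasi-likelihood test, TMM, edgeR's low-count filter, terms for replicate number and RNP), with Benjamini-Hochberg adjustment over 14934 genes. CPM per sample are TMM-scaled. Log2 CPM used a prior count of 2, and standard errors are the log2 fold change over the square root of F. The labels do not tie a replicate number to a mouse, and p-values measure only the spread between these samples. The paper describes the 4 replicates as independent and biological. The series' design text derives the cells from 4 mice for both RNPs, and samples with a shared number were paired from it; deviations of same-numbered samples correlated at 0.595, 0.075, 0.624 and 0.041 over all genes tested, where samples of different numbers reached 0.398, and at 0.651 to 0.76 over 9777 genes with a mean log2 CPM above 2, where different numbers reached 0.164. Over the members alone the correlations of pairs were -0.116 to 0.434, so that the pairing rests on the design text and not on every measure of likeness. Every pair of samples within a group differed beyond counting noise (chi-square over its degrees of freedom at least 58.3). The test was also tried on simulated counts for this comparison, in which 200 genes differed by 1 on the log2 scale. It found 96.5% of them at a dispersion of 0.01 (15016 genes tested) and 80.0% at 0.04 (14972 genes). The simulated counts held no replicate effect, and the members' fitted values ran only from -0.46 to 0.16. These rates therefore do not tell how often changes of the members' size would be found. Gene positions, overlaps, start regions and copies come from GENCODE's annotation of GRCm39 and its genome sequence, a later release than the one used for counting. Named members were the 5 with the highest and lowest fold changes, the 5 with the lowest p, and the 5 with the highest and lowest mean CPM, beside members of gene lists; the members with the most variable pairs were added after their values were seen. The members and lists were chosen with earlier results of these data known. Alternatives were DESeq2 1.42.0, limma-trend 3.58.1, no block, other normalizations, filters and member cutoffs, and leaving out each replicate; leaving out the overlapped genes was added after the data were seen. Figures were drawn with matplotlib 3.10.9. The values of some single genes are not reported here.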

Additional observations from a re-analysis of the deposited data

Results flagged for a closer look

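Of 54 sets of 4 values (the named members and *Zc3h12a* in each group and over pairs, and 3 library shares), 4 had one sample far from the other 3, where chance gives about 1 set in 20. With *Zc3h12a* RNP, replicate 4 was low for *Rpl4* (1038 CPM, the next 1467) and for *Rps12* (573 CPM, the next 785). With scrambled RNP, replicate 4 was low for *Rpl13a* (56.1 CPM, the next 67.5) and replicate 1 for *Zc3h12a* (24.9 CPM, the next 37.1). Replicate 4 was also the sample with the lowest share of counts on ribosomal protein genes in each group.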

How the results depend on the processing

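The counts of members past both thresholds stayed at 0 in each direction under all alternatives run, and no member had an adjusted p at or under 0.05 in any of them. Of all genes, 80 were called higher and 57 lower without replicate 2 (0.53% and 0.378%), 8 and 50 by DESeq2, 9 and 31 with no low-count filter (0.0383% and 0.132%), and 0 to 3 in each direction otherwise. The count with an unadjusted p at or under 0.05 and a lower level was 10 in the analysis reported. It was 0 with no replicate block (0.596% of all genes) and 1 to 21 when a replicate was left out (0.927% to 3.23% of all genes). With RLE size factors, 4 members (5%) were lower, against 3.19% of all genes. The count was 3 with library totals only (3.75% against 1.9%) and 1 with no low-count filter (1.25% against 1.01%). With library totals only, 1 member (1.25%) was higher, against 6.37% of all genes, and the cause was not tested. The median log2 fold change of the members was -0.26 to 0.03 when a replicate was left out. For single members, *Rpl4* had a log2 fold change of 0.0010 with library totals only. Leaving out a replicate turned the direction of *Rpl10* (range -0.24 to 0.36), *Rpl22l1* (-0.16 to 0.41), *Rps29* (-0.10 to 0.31), *Rps27l* (-0.029 to 0.23), *Rpl4* (-0.18 to 0.076), *Rplp1* (-0.32 to 0.035) and *Rps9* (-0.37 to 0.030), whereas *Rps10* stayed between -0.48 and -0.42, *Rpl24* between -0.36 and -0.24 and *Rps12* between -0.26 and -0.17. The pairing by replicate number changed no call past both thresholds. With 4 pairs, small differences could go undetected. The intervals given are not adjusted for the number of genes and are not a limit of detection. The 95% interval lay wholly under 0 in 10 members, and these did not pass both thresholds either.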
